A study of Arabidopsis thaliana with 28 samples.

Results

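The transcripts of 37 Arabidopsis thaliana loci that encode cyclins, cyclin-dependent kinases (CDKs) and CDK inhibitors were examined in RNA sequencing data from whole seedlings. The loci were chosen by family, as the named CYCA, CYCB, CYCD, CDKA, CDKB, KRP and SIM/SMR genes, and all 37 were among the 23681 loci of the table. They comprised 8 B-type, 7 A-type and 8 D-type cyclins, 5 kinases, 7 KRP inhibitors and the inhibitors SIM and SMR1. All 37 passed the filter on low values, which left 21023 loci for testing. The data came from 28 libraries in 10 groups. Col-0, the wild-type accession, and aba2-1, which carries a mutation in ABA2, a gene needed to make the hormone abscisic acid (ABA), were each kept in liquid medium for 3 h with mock solution, 10 nM ABA or 50 nM ABA. The 4 remaining groups were T3 lines given the mock solution, each expressing a CA form of 1 ABA receptor: PYR1 CA, PYL4 CA, PYL5 CA or PYL6 CA. For these receptors CA usually means constitutively active. The labels give neither the genetic background nor the promoter of the CA lines, nor how many independent transformants each line represents. Growth on plates lasted 7 days by 1 label, while another states 10 days after germination, a disagreement that was not resolved. There were 3 libraries a group, but 2 in Col-0 10 nM ABA and 2 in Col-0 mock. Nothing states that replicates were separate cultures, so every p-value measures only the spread between these libraries. In the limma fit of all libraries this spread is pooled for each gene over the 10 groups, not taken from the compared groups alone.

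Cyclins bind CDKs and switch them on in turn through the cell cycle. D-type cyclins act with CDKA;1 at the entry into the cycle by phosphorylating the retinoblastoma-related protein, A-type cyclins act mainly during S phase, and B-type cyclins act with CDKA;1 and the plant-specific CDKB kinases at the entry into mitosis. The KRP proteins, also called ICK, and the SIM/SMR proteins bind cyclin-CDK complexes and inhibit them, which slows division or favours endoreduplication, the replication of DNA without division. ABA is a stress hormone known to slow growth and division in seedlings, and KRP1 is known in Arabidopsis as an ABA-inducible inhibitor of CDKA;1.

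The libraries held 11.99 to 30.94 M reads, of which 1690 to 12371 fell on the 37 loci. Of the 28 libraries, 3 were set aside in an alternative fit, picked by inspection after seeing the data and by no fixed rule. In aba2-1 10 nM ABA replicate 3, the ribosomal RNA locus AT3G41768 took 35.1% of the reads, and this library held the fewest reads on the 37 loci. aba2-1 50 nM ABA replicate 2 was the shallowest library and lay at 124.2 on the first principal component of log2 values, which held 23.1% of the variance, and the other libraries lay between -20.57 and 50.94. PYL5 CA replicate 3 lay at 43.19 on it, while replicates 1 and 2 of that line lay at 4.251 and -14.13. Libraries that were kept also deviated: aba2-1 50 nM ABA replicate 1 lay further out on this component, at 50.94, and the median absolute log2 deviation from the mean of the other libraries of the group was 0.392 in aba2-1 50 nM ABA replicate 3 and 0.378 in PYL5 CA replicate 2, against 0.34 in PYL5 CA replicate 3. RAB18 (AT5G66400), an ABA-induced dehydrin gene used here as a check of the treatment, measured 16.4 and 32.1 normalised reads in the Col-0 mock libraries and 13.5 to 18.1 in the aba2-1 mock libraries. It measured 298.5 to 531 in Col-0 50 nM ABA and 872.2 to 1505 in aba2-1 50 nM ABA. In the CA lines RAB18 lay between 28.2 and 103.5.

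The levels of the 37 transcripts spanned a wide range when compared per length. Values are normalised reads, that is, reads divided by a size factor for each library, and levels between genes were set per kb of the longest RefSeq transcript, as the median over the 28 libraries. Among B-type cyclins, CYCB1;2 (AT5G06150) was the highest at 206.7 per kb, and CYCB2;1 (AT2G17620) the lowest at 27.8 per kb. Between them lay CYCB1;4 (AT2G26760) at 106.6, CYCB2;3 (AT1G20610) at 89.5, CYCB2;2 (AT4G35620) at 66.0, CYCB1;1 (AT4G37490) at 65.6, CYCB1;3 (AT3G11520) at 59.8 and CYCB2;4 (AT1G76310) at 54.8 per kb. Among A-type cyclins, CYCA3;2 (AT1G47210) led at 173.1 and CYCA2;1 (AT5G25380) was the lowest of all 37 at 6.38 per kb. The other A-type levels were 119 per kb for CYCA2;3 (AT1G15570), 78.8 for CYCA1;1 (AT1G44110), 68.7 for CYCA2;4 (AT1G80370), and 22.5 for both CYCA2;2 (AT5G11300) and CYCA3;1 (AT5G43080).

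D-type cyclins included the highest of the 37, CYCD3;2 (AT5G67260) at 497.1 per kb, a cyclin known from leaf and cambium proliferation. CYCD2;1 (AT2G22490) followed at 330.3, then CYCD3;1 (AT4G34160) at 241.4, CYCD3;3 (AT3G50070) at 194.1, CYCD1;1 (AT1G70210) at 76.7, CYCD5;1 (AT4G37630) at 53.8, CYCD4;1 (AT5G65420) at 24.9 and CYCD6;1 (AT4G03270) at 19.3 per kb. CDKA;1 (AT3G48750), the kinase that acts throughout the cycle, lay at 414.8 per kb, above CDKB2;1 (AT1G76540) at 187.1, CDKB2;2 (AT1G20930) at 112.6, CDKB1;1 (AT3G54180) at 65.7 and CDKB1;2 (AT2G38620) at 59.4. Among the inhibitors, SIM (AT5G04470) was the highest at 422.5 per kb, followed by SMR1 (AT3G10525) at 252.1, KRP4 (AT2G32710) at 244.1 and KRP2 (AT3G50630) at 162.5. KRP6 (AT3G19150) lay at 95.4, KRP5 (AT3G24810) at 74.1, KRP1 (AT2G23430) at 68.9, KRP3 (AT5G48820) at 52.4 and KRP7 (AT1G49620) at 25.6 per kb. Neighbours in these orders often had overlapping ranges over the libraries. Between the lowest and the highest library, CYCB1;2 differed by a factor of 1.48, the least of the 37, and KRP1 by a factor of 13.1, the most.

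**Figure D1:**
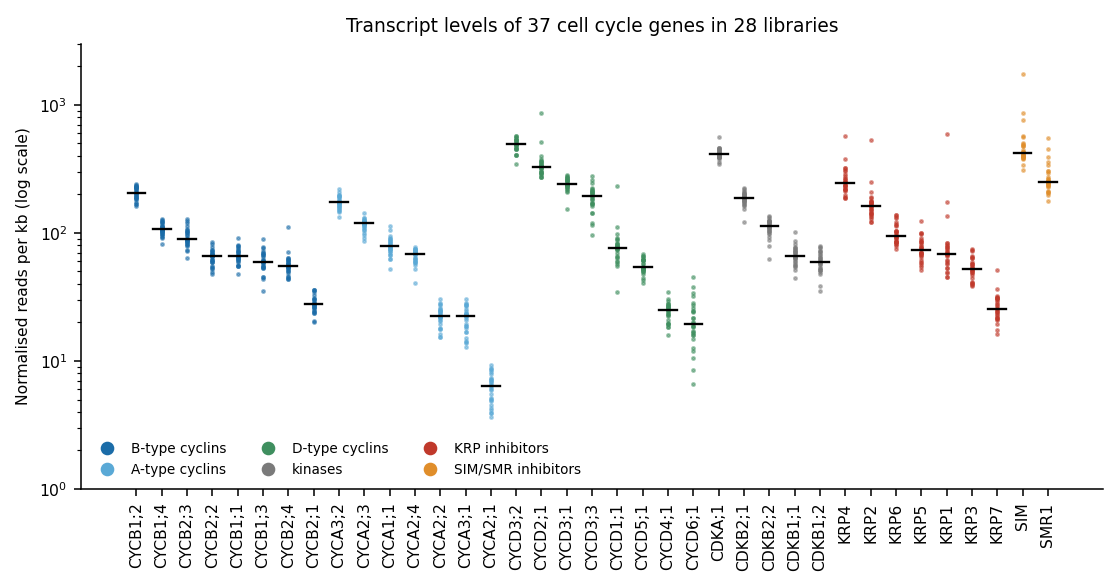
Normalised reads per kb of the longest RefSeq transcript, on a log scale, for each of the 37 loci. Points are the 28 libraries and bars their medians, grouped by class and ordered by median. D-type cyclins, CDKA;1 and SIM reach the highest levels and CYCA2;1 the lowest.

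Of the 9 inhibitors, 5 were higher in aba2-1 seedlings after 50 nM ABA than after mock treatment, in a comparison in which 24.8% of all loci tested were called and 12.7% were called higher. They were KRP1, KRP2, KRP4, SIM, which drives endoreduplication in trichomes, and SMR1, also called LGO, which drives it in sepals. None of the 9 was called lower (limma). The 250 bases upstream of their annotated starts, read from the TAIR10.1 assembly with RefSeq gene positions, are shown for the 5 inhibitors, together with that of the mitotic cyclin CYCB1;3, which fell in the same comparison. Each window ends at the base before the gene start and is written 5′ to 3′ on the strand of the gene. Capitals mark the word AACGG, the core of the mitosis-specific activator (MSA) element, and the word ACGTG, the core of the ABA-responsive element (ABRE), on either strand. The E2F words TTTCCCGC and TTTGGCGC were also searched on both strands and do not occur in these 6 windows.
KRP1, chr2:9978091-9978340, minus strand: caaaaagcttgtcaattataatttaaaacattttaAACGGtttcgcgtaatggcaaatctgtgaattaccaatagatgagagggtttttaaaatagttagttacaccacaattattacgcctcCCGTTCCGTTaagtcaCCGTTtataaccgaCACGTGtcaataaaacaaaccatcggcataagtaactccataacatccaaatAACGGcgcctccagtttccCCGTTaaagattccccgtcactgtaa
KRP2, chr3:18800056-18800305, plus strand: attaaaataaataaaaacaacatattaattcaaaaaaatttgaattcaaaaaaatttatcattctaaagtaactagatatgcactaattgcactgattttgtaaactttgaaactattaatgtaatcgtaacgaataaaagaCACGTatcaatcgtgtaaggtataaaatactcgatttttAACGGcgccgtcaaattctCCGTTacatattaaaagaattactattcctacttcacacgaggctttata
KRP4, chr2:13873112-13873361, plus strand: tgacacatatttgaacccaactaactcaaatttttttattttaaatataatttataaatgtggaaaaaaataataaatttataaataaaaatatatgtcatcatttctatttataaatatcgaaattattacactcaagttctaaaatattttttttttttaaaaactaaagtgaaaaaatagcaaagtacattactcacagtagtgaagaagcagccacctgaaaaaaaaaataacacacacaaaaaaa
SIM, chr5:1267417-1267666, minus strand: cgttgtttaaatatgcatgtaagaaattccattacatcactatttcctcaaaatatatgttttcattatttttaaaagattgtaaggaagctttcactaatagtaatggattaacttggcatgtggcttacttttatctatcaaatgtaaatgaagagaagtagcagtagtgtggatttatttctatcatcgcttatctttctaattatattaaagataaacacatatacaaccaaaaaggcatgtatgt
SMR1, chr3:3282132-3282381, minus strand: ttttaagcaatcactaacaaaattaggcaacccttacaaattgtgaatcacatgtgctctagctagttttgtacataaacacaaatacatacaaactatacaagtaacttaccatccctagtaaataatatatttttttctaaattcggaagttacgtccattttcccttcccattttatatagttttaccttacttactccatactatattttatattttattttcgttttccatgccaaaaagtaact
CYCB1;3, chr3:3627274-3627523, minus strand: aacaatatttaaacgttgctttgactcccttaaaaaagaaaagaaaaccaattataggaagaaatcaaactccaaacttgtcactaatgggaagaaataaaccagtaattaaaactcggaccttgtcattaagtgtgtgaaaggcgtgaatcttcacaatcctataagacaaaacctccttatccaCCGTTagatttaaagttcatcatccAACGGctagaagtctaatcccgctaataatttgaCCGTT

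The KRP1 window held 6 MSA cores and a CACGTG, which reads as ACGTG on both strands and so counts as 2 ABRE matches. KRP2 held 2 MSA cores and 1 ABRE core, CYCB1;3 held 3 MSA cores, and the windows of KRP4, SIM and SMR1 held none of the words. The words did not overlap each other except for that palindrome. Over all 22340 protein-coding loci of the table, 21.4% of windows of this length held an MSA core, 24.1% an ABRE core and 0.998% an E2F word. Of the 37 windows, 15 held an MSA core, a share of 40.5%, and 8 held an ABRE core, a share of 21.6%. Those with an MSA core were 6 of 8 B-type, 3 of 7 A-type and 1 of 8 D-type cyclins. The rest were 4 of 7 KRP inhibitors and 1 of 5 kinases, with 0 of 2 for SIM and SMR1. A single window of the 37 held an E2F word, that of CYCD3;3. These matches describe letters in a fixed window and say nothing of binding.

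KRP1 (chromosome 2, 9976590 to 9978090, minus strand) measured 62.3, 57.9 and 53.3 normalised reads in the aba2-1 mock libraries and 159, 700 and 66.9 in replicates 1, 2 and 3 of aba2-1 50 nM ABA. All 3 ABA libraries lay above all 3 mock libraries, but replicate 3 lay only just above them and below both Col-0 mock libraries, at 71.7 and 80.2. The means were 308.4 ± 342 and 57.8 ± 4.48 (SD, n = 3 each), and the log2 difference was 1.74 with an SE of 0.469 (limma, adjusted p = 0.011). All log2 differences are of value + 1. In seedlings as a whole, fewer cells of a type and less RNA per cell cannot be told apart, in this and every later result.

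KRP2 (chromosome 3, 18800306 to 18801595, plus strand), an inhibitor known from lateral root initiation, measured 163, 158 and 192 in aba2-1 mock and 236, 599 and 211 in aba2-1 50 nM ABA. The groups did not overlap, and replicate 2 was again the highest. Its log2 difference was 0.86 with an SE of 0.239 (limma, adjusted p = 0.013). KRP4 (chromosome 2, 13873362 to 13876737, plus strand), known from the control of cell size in the shoot meristem, measured 560, 530 and 471 in mock and 909, 1359 and 639 in 50 nM ABA. Every ABA library exceeded every mock library. The means were 968.9 ± 363.6 and 520 ± 45.2 (SD, n = 3 each), with a log2 difference of 0.83 and an SE of 0.192 (limma, adjusted p = 0.004).

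SIM (chromosome 5, 1266625 to 1267416, minus strand) measured 318, 354 and 385 in aba2-1 mock and 607, 1377 and 332 in 50 nM ABA. Here the groups overlapped, since replicate 3 of the ABA group lay inside the mock range. The log2 difference was 0.89 with an SE of 0.291 (limma, adjusted p = 0.03). SMR1 (chromosome 3, 3281306 to 3282131, minus strand) measured 209, 218 and 198 in mock and 376, 460 and 251 in 50 nM ABA, without overlap. Its log2 difference was 0.75 with an SE of 0.186 (limma, adjusted p = 0.0063). The annotated genes of KRP4, SIM and SMR1 share 926, 338 and 375 bases with a gene on the opposite strand, and whether the counting used strand is not given in the sources used here. The partner of KRP4, AT2G32720, differed by a log2 of 0.3 (limma, adjusted p = 0.07), and the partners of SIM and SMR1 were not analysed here. In all, 12 of the 37 overlap another annotated gene, and values of such members are uncertain to that extent. Among these, CYCD3;1 shares 40 bases with AT4G34150 on the same strand.

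The other 4 inhibitors did not pass the test. KRP5 differed by a log2 of 0.3, KRP6, known from the male germline, by 0.3, KRP7 by 0.3 and KRP3 by -0.12, with 95% intervals that together ran from -0.51 to 0.87. Over the 9 inhibitors the median log2 difference was 0.75, against 0.00 over all loci tested (0.003 unrounded).

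**Figure D2:**
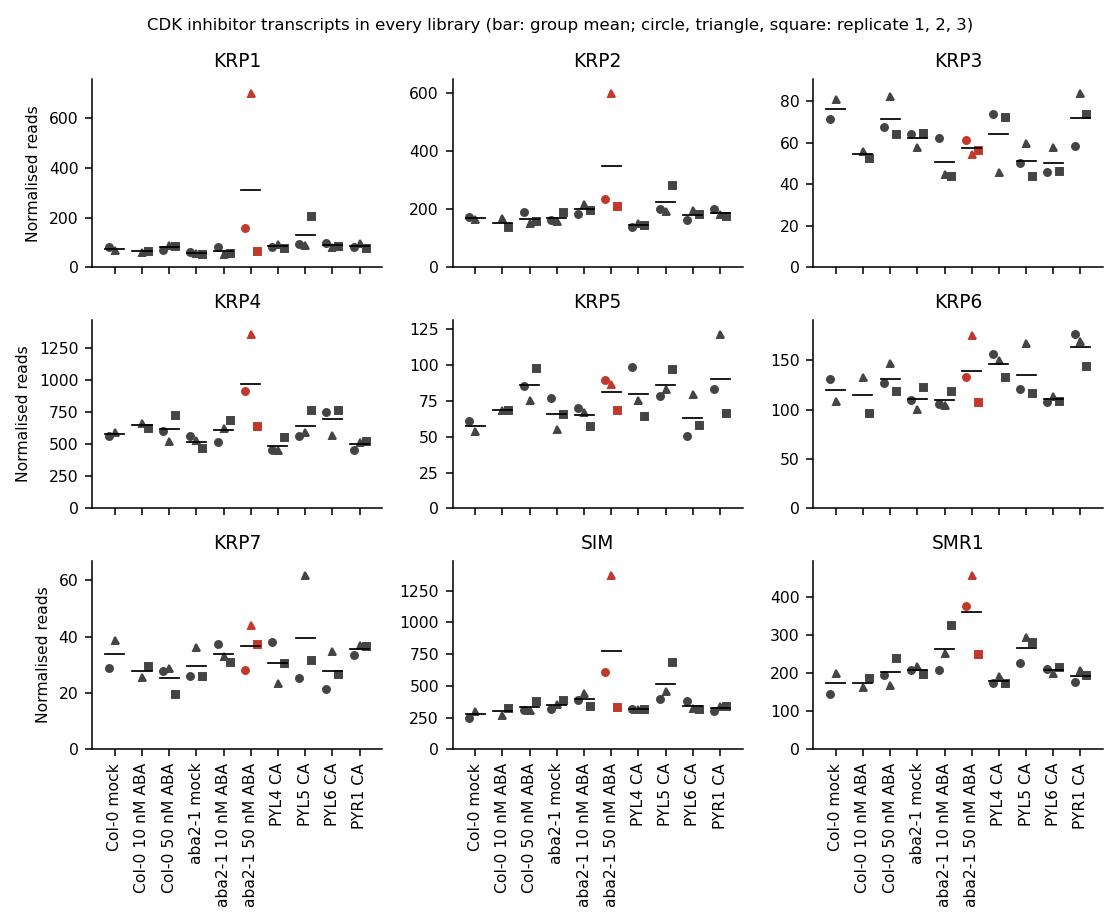
Normalised reads of the 9 CDK inhibitors in each of the 28 libraries, by group. Bars are group means, circles, triangles and squares are replicates 1, 2 and 3, and aba2-1 50 nM ABA is in red. KRP1, KRP2, KRP4, SIM and SMR1 are highest in replicate 2 of that group, and replicate 3 lies near the other groups.

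Among the D-type cyclins, CYCD6;1, which promotes formative divisions of the root ground tissue downstream of SHR and SCR, was higher and CYCD3;3 was lower. CYCD6;1 (chromosome 4, 1431844 to 1433861, minus strand) measured 27.0, 16.9 and 13.6 in aba2-1 mock and 52.0, 73.2 and 27.4 in 50 nM ABA. Replicate 3 lay just above the highest mock library. The log2 difference was 1.31 with an SE of 0.391 (limma, adjusted p = 0.019). It shares 847 bases with AT4G03260 on the opposite strand, whose log2 difference was -0.10 (limma, adjusted p = 0.42). CYCD3;3 (chromosome 3, 18565134 to 18566834, minus strand) measured 355, 205 and 246 in mock and 173, 140 and 233 in 50 nM ABA, with overlap, and its log2 difference was -0.55 with an SE of 0.203 (limma, adjusted p = 0.049). CYCD1;1 and CYCD2;1 had log2 differences of 0.78 and 0.57 that missed the threshold (limma, adjusted p = 0.076 and 0.072). Both were far highest in replicate 2, at 579 against 190 and 195 for the former and 1495 against 690 and 502 for the latter.

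Of the 19 A-type cyclins, B-type cyclins and CDKB kinases, which carry S phase and mitosis, only CYCB1;3 passed the test. CYCB1;3 (chromosome 3, 3625286 to 3627273, minus strand) measured 116, 100 and 113 in aba2-1 mock and 72.5, 57.9 and 89.7 in 50 nM ABA. Every ABA library lay below every mock library. The means were 73.4 ± 15.9 and 110 ± 8.59 (SD, n = 3 each), and the log2 difference was -0.60 with an SE of 0.184 (limma, adjusted p = 0.023). CYCB1;1, often used as a reporter of cells in G2 and mitosis, measured 107, 116 and 130.5 in mock and 97.2, 102 and 125 in 50 nM ABA, a log2 difference of -0.13 with a 95% interval from -0.48 to 0.23. CYCB2;3 and CYCB2;4 lay higher by 0.42 and 0.51 (limma, adjusted p = 0.05 and 0.07), and neither was called.

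The summed level of the 8 B-type cyclins was 1193 to 1306 in aba2-1 50 nM ABA and 1201 to 1251 in aba2-1 mock, and that of the 7 A-type cyclins was 796.8 to 939.8 and 868.9 to 1063. The 4 CDKB kinases summed to 547.6, 386.5 and 640.2 in replicates 1, 2 and 3 of the ABA group and to 586.5 to 611.4 in mock. By contrast the 7 KRP inhibitors summed to 1616, 3019 and 1187, against 994.9 to 1062 in mock. SIM and SMR1 together summed to 983.5, 1837 and 582.5, against 526.3 to 583.1 in mock. The sums of cyclins, of CDKB kinases and of SIM with SMR1 overlapped between the groups, and those of the KRP inhibitors did not. The KRP sum of replicate 3 lay below the highest in aba2-1 10 nM ABA, 1196. The median log2 difference of the 19 genes was -0.065, and their 95% intervals together ran from -0.98 to 0.94. CDKA;1 differed by 0.15, with an interval from -0.09 to 0.39.

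**Figure D3:**
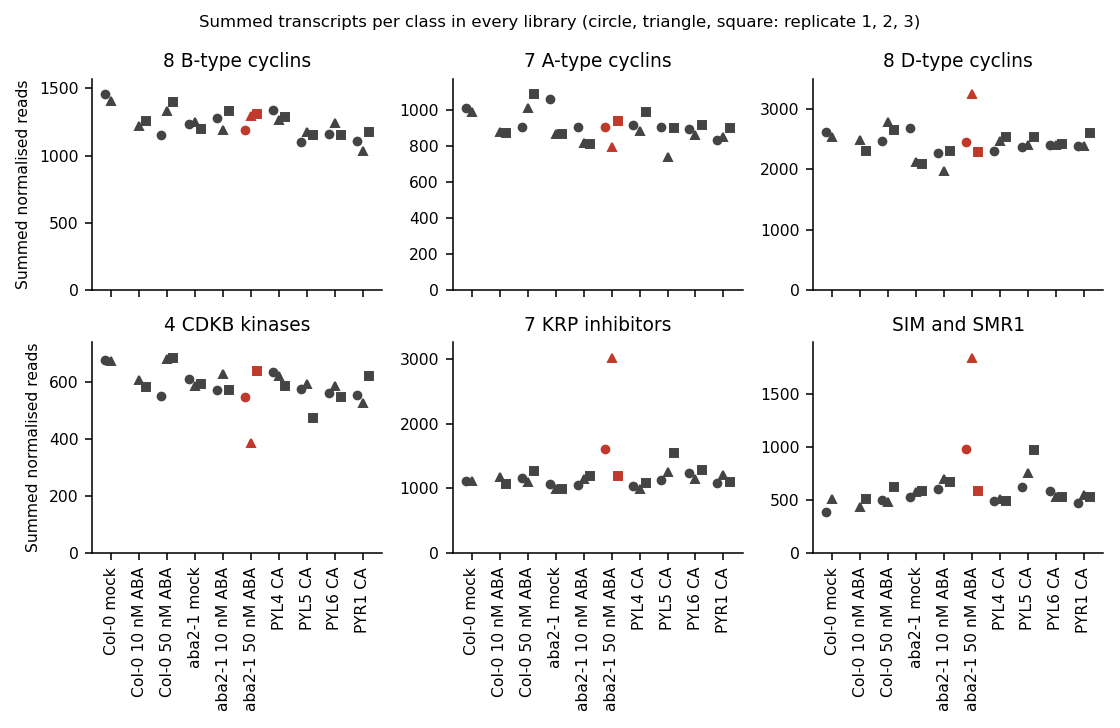
Summed normalised reads of 6 classes in each library, by group, with replicates 1, 2 and 3 as circles, triangles and squares and aba2-1 50 nM ABA in red. The KRP sum and the sum of SIM and SMR1 are highest in aba2-1 50 nM ABA replicate 2, at 3019 and 1837, where the CDKB sum is lowest, at 386.5.

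Altogether 8 of the 37 members, or 21.6%, passed the test in aba2-1 50 nM ABA against aba2-1 mock, beside 24.8% of all loci tested. Of these, 6 were higher, or 16.2%, beside 12.7% of all loci, and 2 were lower, or 5.41%, beside 12.1% of all loci. The share of members called was thus close to that of all loci. In aba2-1 50 nM ABA against aba2-1 10 nM ABA, KRP1 and KRP4 were higher and no member was lower, 5.41% of members beside 11.6% of all loci, with 6.08% of loci higher and 5.47% lower. KRP1 measured 81.8, 53.3 and 57.4 in the 10 nM group and its log2 difference was 1.62 with an SE of 0.469 (limma, adjusted p = 0.033). KRP4 measured 514, 628 and 688 there and its log2 difference was 0.61 with an SE of 0.192 (limma, adjusted p = 0.044). Both groups overlapped, because replicate 3 of the 50 nM group lay inside the range of the 10 nM group for each gene. Without replicate 2 of the 50 nM group neither was called, and of the 6 fits that left out a library KRP1 was lost in 3 and KRP4 in 5.

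The inhibitor values differed widely between the 3 libraries of aba2-1 50 nM ABA. Of the 9 inhibitors, 7 exceeded every one of the 5 mock libraries of Col-0 and aba2-1 in replicate 1, 8 in replicate 2 and 3 in replicate 3, while 31.4%, 39.7% and 22.6% of all loci did so. RAB18 was high in all 3, at 987, 1505 and 872. Without replicate 2, KRP1 fell to a log2 difference of 0.83 and was not called (limma, adjusted p = 0.08), and of the 8 members only KRP4 was called, at 0.55 (limma, adjusted p = 0.04). KRP4 was the only member called in all 6 fits that left out a library of either group. It was not called when only these groups were fitted (limma, adjusted p = 0.17) or with weights by group (limma, adjusted p = 0.051), and the fit of only these groups called none of the 8. KRP1, KRP2 and SMR1 were lost in 1 of the 6, the one without replicate 2, whereas SIM, CYCD6;1 and CYCD3;3 were lost in 4 and CYCB1;3 in 3. Without replicate 2 the log2 difference was 0.39 for KRP2, 0.35 for SIM, 0.56 for SMR1, 1.00 for CYCD6;1, -0.44 for CYCB1;3 and -0.38 for CYCD3;3. Without replicate 3 of aba2-1 50 nM ABA, 17 members were called, 11 higher and 6 lower, and 44.1% of all loci. Without aba2-1 mock replicate 3, 4 members were called. The share of all loci called is not given here for that fit or for the fit without replicate 2 of aba2-1 50 nM ABA. Their counts therefore do not describe the members alone. Without the 3 libraries set aside, KRP1, KRP4, SMR1 and CYCD6;1 were called, at 0.83, 0.55, 0.56 and 1.00, beside 13.8% of all loci.

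Across all groups, the 7 KRP inhibitors summed to 1076 to 1269 normalised reads in the Col-0 libraries, 994.9 to 1196 in aba2-1 mock and 10 nM ABA, and 991.8 to 1544 in the CA lines. The mean of KRP1 was 75.9 ± 6.03 in Col-0 mock (SD, n = 2) and 81.9 ± 10.3 in Col-0 50 nM ABA (SD, n = 3). It was 84.4 ± 7.33 in PYL4 CA, 131 ± 65.4 in PYL5 CA, 88.9 ± 8.83 in PYL6 CA and 86.3 ± 10.3 in PYR1 CA (SD, n = 3 each). These CA means lay above both mock means, 75.9 and 57.8, but no CA line had a call for KRP1 (limma). Every CA library, the lowest at 77.7, exceeded the highest aba2-1 mock library, at 62.3. PYL4 CA and PYR1 CA overlapped Col-0 mock, at 80.2 and 71.7. The fit uses 1 spread per gene over all groups, which for KRP1 includes the 700 of aba2-1 50 nM ABA replicate 2. The mean of SIM was 274 ± 41.9 in Col-0 mock (SD, n = 2) and 352 ± 33.5 in aba2-1 mock (SD, n = 3), and between the lines it ran from 314 in PYL4 CA to 514 in PYL5 CA.

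PYL5 CA replicate 3, which received no ABA and measured 39.5 for RAB18, was also high for KRP1, SIM and KRP2. KRP1 measured 93.8, 92.0 and 206 in the PYL5 CA libraries, SIM 400, 457 and 685, and KRP2 200.5, 194 and 282. SMR1 was highest in replicate 2 of that line, at 295 against 282 in replicate 3. KRP4 measured 767 in replicate 3, close to the 749 and 766 of PYL6 CA replicates 1 and 3. PYL5 CA replicate 3 had the highest SIM and KRP1 values of all libraries after aba2-1 50 nM ABA replicate 2. In it 6 of the 9 inhibitors exceeded every mock library, as did 32.7% of all loci.

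Some marker genes of other tissues and cell types also differed between these libraries, while others did not or followed another order. Summed over 5 of 5 root meristem markers, the level was 1523 to 1702 in aba2-1 mock and 2037, 4089 and 1547 in replicates 1, 2 and 3 of aba2-1 50 nM ABA, and 2442 in PYL5 CA replicate 3. SCR and SHR, regulators of the root ground tissue, made up most of that sum. SHR measured 649, 1578, 490 and 849 in these 4 libraries, and SCR 1251, 2276, 971 and 1390. The meristem regulators PLT1 and PLT2 had means of 64.2 ± 39.3 and 48.3 ± 20.5 in 50 nM ABA, against 66.1 ± 1.89 and 45.8 ± 10.3 in mock (SD, n = 3 each). The 4 shoot meristem markers summed to 176.2 to 208.7 in mock and 274.7, 410.3 and 199.2 in 50 nM ABA, with WUS and CLV3 between 0 and 1.71 in the 6 libraries. KNAT1 made up most of this sum, with means of 142.3 ± 13.5 in mock and 243.1 ± 114.9 in 50 nM ABA (SD, n = 3 each). STM did not share the rise, with means of 51.7 ± 6.34 and 50.0 ± 8.28 (SD, n = 3 each). The 6 stomatal lineage markers summed to 1014 to 1091 and 972.5 to 1411, with members on both sides. TMM was called lower (limma, log2 difference -0.62, adjusted p = 0.034), EPF2 had means of 37.1 in mock and 25.6 in 50 nM ABA, and SPCH and FAMA had means of 173 and 387 in mock and 278 and 471 in 50 nM ABA, none of these 3 called. Both leaf markers together ran from 452748 to 490327 in mock and were 393676, 229489 and 535568 in 50 nM ABA. Lateral root founder markers, 2 of 2, summed to 19.3 to 37.4 in mock and 35.7 to 49.4 in 50 nM ABA, and root tissue markers, 3 of 3, to 837.5 to 929.1 and 645.6 to 732.1. Of the root tissue markers, PIN2 and COBL9 had lower means in 50 nM ABA, 522.1 against 720.5 and 83.5 against 103.1. The mean of WER was higher there, 80.0 against 75.0. Seed and pollen markers, of which 2 of 4 were analysed, stayed at or below 5.97 in both groups. In addition, a table row named MCCA-NOS, which was read at high levels in the CA lines, measured 139.9, 34.1 and 5.32 in replicates 1, 2 and 3 of aba2-1 50 nM ABA and 0 in aba2-1 mock. The part of depth, marker levels and this row in the differences between the groups was not tested.

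Among other cell cycle genes in the same comparison, read beside 24.8% of all loci called, 12.7% higher and 12.1% lower, DNA replication genes had more lower than higher calls. Of 18, 5 were lower and 1 higher, with a median log2 difference of -0.02. PCNA1, the sliding clamp, fell by 1.03 with an SE of 0.254 (limma, adjusted p = 0.0065), from 165 to 209 in mock to 96.4, 57.9 and 136 in 50 nM ABA. TSO2, a ribonucleotide reductase subunit, fell by 0.57 and MCM7, a subunit of the replicative helicase, fell by 0.37, while FAS1, a chromatin assembly subunit, rose by 0.45. The other lower genes were PCNA2, a second clamp gene, at -0.66 and ORC2, a subunit of the origin recognition complex, at -0.77. ORC2 was called in 0 of the 6 fits that left out a library and PCNA2 in 1. PCNA1 and MCM7 were called in 5, PCNA1 being lost without replicate 2 of the ABA group and MCM7 without aba2-1 mock replicate 3, while TSO2 was called in 4 and FAS1 in 3. Of 16 mitosis and cytokinesis genes only 3xHMG-box1, a chromatin protein of dividing cells, passed, at 0.97 (limma, adjusted p = 0.0057), and it too was lost without replicate 2. The median of these 16 was 0.13.

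Of 13 E2F, RBR and MYB3R regulators only E2FB, an activator of the cycle, passed, at 0.58 (limma, adjusted p = 0.023), again in a comparison with 24.8% of all loci called. Among 16 tested cyclins, CDKs and CDK partners outside the 37, CDKD;3, a CDK-activating kinase, and CCS52A1, an activator of the anaphase-promoting complex that favours endoreduplication, were higher at 0.52 and 0.60, and CYCB3;1 and CDKF;1 were lower at -0.87 and -0.37. Among 10 tested loci of the SMR family, AT1G10690, annotated as a CDK inhibitor, was higher at 0.63 (limma, adjusted p = 0.015) and SMR7, known from the response to DNA damage, was lower at -1.64, from 12.5, 7.24 and 11.3 in mock to 4.26, 0 and 7.6 in 50 nM ABA. E2FB, CDKD;3, CCS52A1, CYCB3;1, CDKF;1 and SMR7 were lost without replicate 2 of the ABA group and in at least 1 further fit that left out a library. AT1G10690 was lost in 2 of the 6 such fits. None of 4 DNA damage genes passed (limma), with 0 at an unadjusted p under 0.05.

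No member was called in Col-0 at either dose. In Col-0 50 nM ABA against Col-0 mock, 0 members passed in limma, edgeR and DESeq2, where 1.01%, 0.928% and 2.16% of all loci passed. An unadjusted p under 0.05 in limma was found for 1 member, or 2.7%, and for 9.44% of all loci. That member was KRP5, at 60.9 and 53.8 in mock and 85.4, 75.5 and 98.4 in 50 nM ABA, with a log2 difference of 0.58 and an SE of 0.235 (limma, adjusted p = 0.36). The groups did not overlap for KRP5. KRP1 measured 80.2 and 71.7 in Col-0 mock and 70.5, 90.4 and 84.6 in Col-0 50 nM ABA, a log2 difference of 0.10 with a 95% interval from -0.99 to 1.19. For KRP4 the difference was 0.08, with an interval from -0.37 to 0.52, for SIM 0.27 from -0.40 to 0.95, and for SMR1 0.22 from -0.21 to 0.65. For KRP2 it was -0.04 from -0.60 to 0.51. The upper bounds lay below the differences fitted in aba2-1 for KRP1, KRP2, KRP4 and SMR1, and above that for SIM. Without aba2-1 50 nM ABA replicate 2 the aba2-1 differences were 0.83, 0.39, 0.56 and 0.55 for KRP1, KRP2, SMR1 and KRP4. The last lay outside these Col-0 intervals and the others inside. The intervals were not refitted and come from all 28 libraries, so their pooled spread still includes that replicate. Lying inside them therefore does not show whether the genotypes respond alike.

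**Figure D4:**
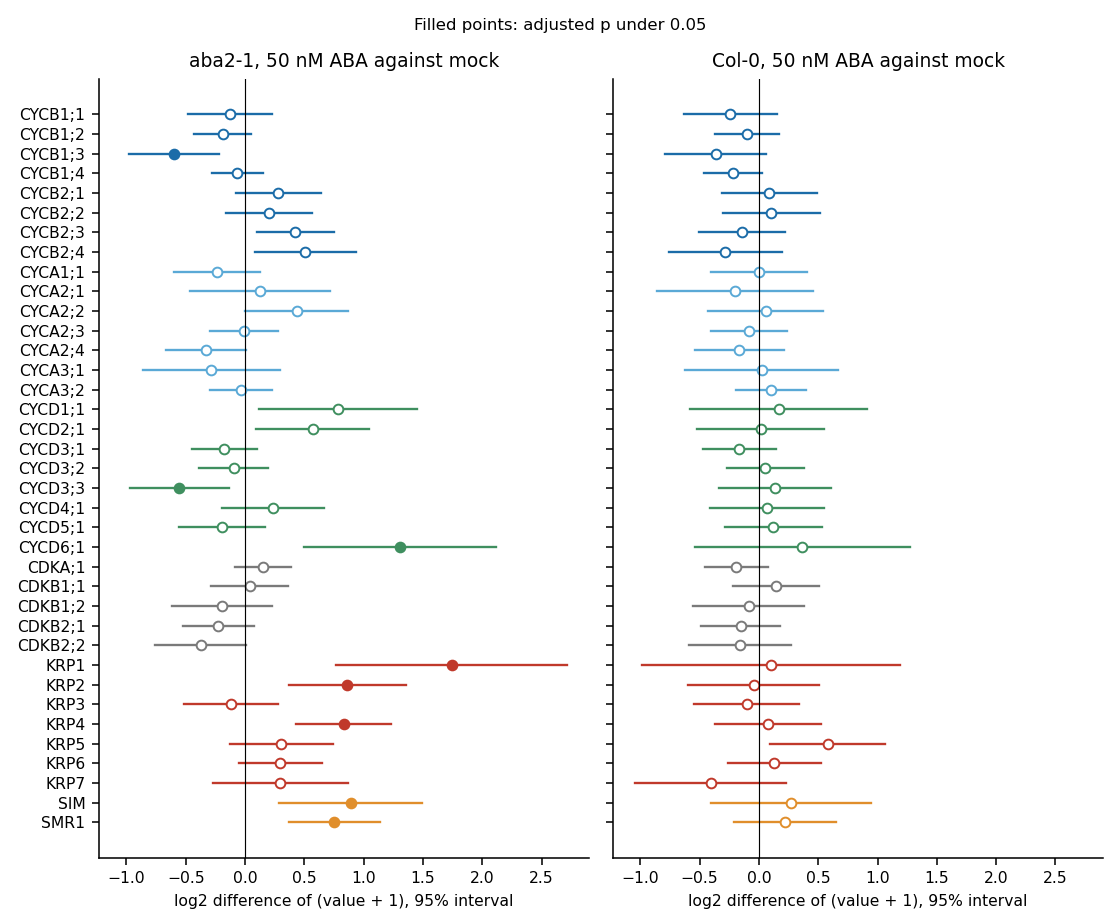
Log2 differences of value + 1 between 50 nM ABA and mock for the 37 members in aba2-1 (left) and Col-0 (right). Lines are 95% intervals, colours are classes and filled points passed the test. In aba2-1 5 inhibitors and CYCD6;1 are filled on the right of 0, and in Col-0 no point is filled.

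In Col-0 10 nM ABA against Col-0 mock, 0.0285% of all loci and 0 members passed, with 3 members, or 8.11%, at an unadjusted p under 0.05 beside 3.89% of all loci, namely CYCB1;3, CYCA2;1 and CYCB1;4, all with lower values. CYCB1;3 measured 149 and 119 in mock and 75.2 and 99.7 in 10 nM ABA, a log2 difference of -0.61 (limma, adjusted p = 0.94). Between the doses in Col-0, 0% of all loci and 0 members passed, with 3 members at an unadjusted p under 0.05 beside 3.63% of all loci. In aba2-1 10 nM ABA against aba2-1 mock, 0.975% of all loci and 0 members passed and 0 members reached an unadjusted p under 0.05, as 7.85% of all loci did. The smallest p there belonged to CYCB1;4, at 198, 209 and 179 in mock and 223, 222 and 225 in 10 nM ABA, with a log2 difference of 0.19 (limma, adjusted p = 0.74). In aba2-1 mock against Col-0 mock, 0.59% of all loci and 0 members passed, with 3 members, or 8.11%, at an unadjusted p under 0.05 beside 7.93% of all loci. These were CYCB2;4, CYCB1;4 and CYCB2;3, at log2 differences of -0.53, -0.26 and -0.36. edgeR and DESeq2 called 0 members in each of these 4 comparisons, and their shares of all loci are not given here. In limma at most 0.975% of all loci passed in any of them, so 0 members is close to the share of all loci.

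Whether the ABA responses of the genotypes differ was tested as the difference of their log2 differences. For 50 nM ABA, 0 members passed in limma, beside 2.05% of all loci, 0 in edgeR, beside 2.16%, and 1 in DESeq2, beside 4.77%. In limma 6 members, or 16.2%, had an unadjusted p under 0.05, beside 18.1% of all loci. KRP4 had a difference of 0.76 (95% interval 0.16 to 1.35, limma, adjusted p = 0.18), KRP2 of 0.91 (limma, adjusted p = 0.19) and KRP1 of 1.64 (95% interval 0.18 to 3.10, limma, adjusted p = 0.23). The rise of the inhibitors in aba2-1 and its lack of a call in Col-0 are therefore not shown to differ. For 10 nM ABA, 0 members passed in the 3 tools, beside 0% of all loci in limma, and 1 member, CYCB1;4, had an unadjusted p under 0.05 in limma, beside 3.11% of all loci.

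The CA lines were each set against both mock groups, since their background is not given, and the comparisons share those mock libraries. Only 1 member passed in any of them. CYCB1;4 (chromosome 2, 11401118 to 11403433, plus strand), a mitotic cyclin, measured 231 and 236 in Col-0 mock and 165, 150 and 195 in PYR1 CA, and 198, 209 and 179 in aba2-1 mock. Every PYR1 CA library lay below both Col-0 mock libraries, and the range overlapped that of aba2-1 mock. Against Col-0 mock the log2 difference was -0.46 with an SE of 0.117 (limma, adjusted p = 0.032), and against aba2-1 mock it was -0.20 (limma, adjusted p = 0.47). The call against Col-0 mock was lost in 4 of 5 fits that left out a library, among them those without either Col-0 mock library. The seed storage gene CRA1 measured 59.9, 16.8 and 463 in the PYR1 CA libraries and at most 3.87 in Col-0 mock, and its part in that difference was not tested.

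That was 2.7% of members, beside 2.81% of all loci called for PYR1 CA against Col-0 mock, 2.11% higher and 0.704% lower. All 19 A-type cyclins, B-type cyclins and CDKB kinases had negative fitted differences in that comparison, from -0.82 to -0.09, with a median of -0.26. Of these 19 only CYCB1;4 was called, and the 95% intervals of 4 of the 19 lay wholly below 0. In aba2-1 mock against the same Col-0 mock libraries 18 of these 19 were negative, with a median of -0.26. All these differences rest on the same Col-0 mock libraries, and the share of all loci with negative differences is not given here. The count of negative differences therefore does not show a fall particular to these genes or to PYR1 CA. Against aba2-1 mock, PYR1 CA gave 0 members called beside 1.15% of all loci, with KRP6 the single member at an unadjusted p under 0.05, which 11.7% of all loci had. KRP6 measured 110, 100 and 122 in aba2-1 mock and 177, 170 and 144 in PYR1 CA, without overlap, and its log2 difference was 0.56 (limma, adjusted p = 0.11).

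In the other CA lines 0 members passed in limma or edgeR, and the edgeR and DESeq2 shares of all loci against the mock groups are not given here. In PYL5 CA against Col-0 mock 1.59% of all loci were called, and DESeq2 called 1 member. At an unadjusted p under 0.05 there were 9 members, or 24.3%, beside 17% of all loci. CYCB1;2, the most even of the cyclins over the libraries, measured 309, 298 and 302 in PYL5 CA and 409 and 404 in Col-0 mock, a log2 difference of -0.42 (limma, adjusted p = 0.096). SMR1 measured 226, 295 and 282 there against 146 and 202, a difference of 0.63 (limma, adjusted p = 0.12). Against aba2-1 mock, 0.157% of all loci were called for PYL5 CA, 4 members, or 10.8%, had an unadjusted p under 0.05 beside 15.8% of all loci, and CYCB1;2 differed by -0.37 (limma, adjusted p = 0.18).

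For PYL4 CA 1.44% of all loci were called against Col-0 mock and 2.48% against aba2-1 mock. At an unadjusted p under 0.05 there were 0 members beside 12% of all loci against Col-0 mock, and 2 members, or 5.41%, beside 12.3% against aba2-1 mock. The latter were CYCD6;1, at 34.9, 38.9 and 35.2 against 27.0, 16.9 and 13.6, and KRP6, at 156, 150 and 133 against 110, 100 and 122, neither with overlap (limma, adjusted p = 0.28 and 0.3). For PYL6 CA 0.157% of all loci were called against Col-0 mock and 0.119% against aba2-1 mock. At an unadjusted p under 0.05 there were 3 members, or 8.11%, beside 7.15% of all loci against Col-0 mock, and 1, KRP4, beside 4.26% against aba2-1 mock. KRP3 measured 46.0, 58.2 and 46.5 in PYL6 CA and 71.5 and 81.1 in Col-0 mock, a log2 difference of -0.60 (limma, adjusted p = 0.47). In an F test among the 4 CA lines 0 members passed in limma, edgeR and DESeq2, where 3.36%, 4.26% and 8.75% of all loci passed. In limma 6 members, or 16.2%, had an unadjusted p under 0.05, beside 17.4% of all loci. The smallest of these were those of CYCB1;2 and KRP6 (limma, adjusted p = 0.15 and 0.18).

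**Figure D5:**
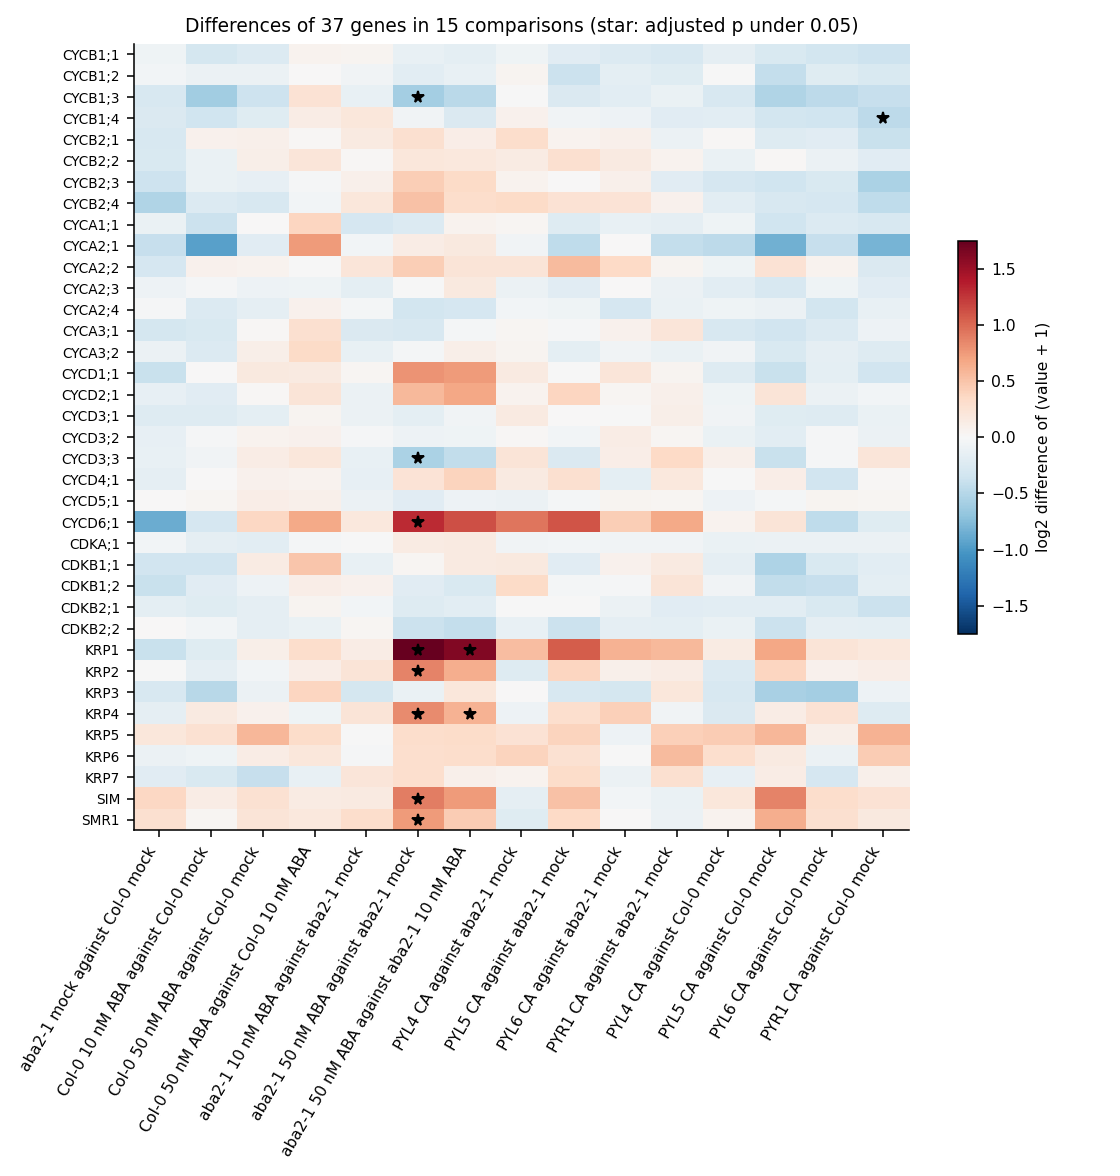
Fitted log2 differences of value + 1 for the 37 members (rows) in 15 comparisons (columns), from blue (lower in the first group) to red (higher). Stars mark an adjusted p under 0.05. The 11 stars are 8 in aba2-1 50 nM ABA against mock, 2 in aba2-1 50 nM against 10 nM ABA and 1 in PYR1 CA against Col-0 mock.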

How the data were processed

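RNA from whole seedlings was sequenced on a NextSeq 500 after a KAPA stranded library preparation, per the labels' protocols. Trimmomatic 0.38, Salmon 1.3.0 and edgeR 3.28.0 and the TAIR10 build are named per the submitters' processing notes, and their settings and whether strand was used are not given in the sources used here. The deposited table holds a signal of 1 size factor scaling per library: each value the authors deposited is a read count divided by a constant of that library, and 100% of values came out as whole reads within 0.01 read. Its 28 columns were all matched to samples by name. The 5 rows that name no locus (23686 rows, 23681 loci) were kept out of the tests.

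The tests were limma 3.58.1 in R 4.3.3 on log2(value + 1), with a trended and robust variance, 1 mean per group over all 28 samples, and Benjamini-Hochberg adjustment over the 21023 loci with a value of at least 10 in at least 2 samples. A call is an adjusted p below 0.05. The design had foreseen edgeR for raw counts, and limma was used because the deposited values are scaled. The count tests on recovered reads, edgeR 4.0.16 and DESeq2 1.42.0, are alternatives. In aba2-1 50 nM ABA against aba2-1 mock they called 5131 and 5616 loci, against 5210 by limma. The scripts were tested on simulated data. Other alternatives were a pseudocount of 5, no filter, fits on only the compared groups, weights by group, a replicate block, and leaving out each library. A fit without 3 libraries was chosen by inspection after seeing the data.

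Every member is named with its level, called members with their statistics and library values, and of uncalled members up to 2 per class with the smallest p. Beyond these, others were named after their values were seen. The members and gene lists were chosen with earlier results of these data known. CYCA3;3, LAT52 and AT2S3 were not analysed here. Promoter windows came from the RefSeq annotation of TAIR10.1, whose nuclear sequence is that of TAIR10.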

Additional observations from a re-analysis of the deposited data

Results flagged for a closer look

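The table has a row named MCCA-NOS that no comparison uses, and it was read above the aba2-1 mock level of 0 in 6 groups. Its mean was 12317 ± 3280 normalised reads in PYL4 CA, 13712 ± 5322 in PYL5 CA, 22098 ± 4138 in PYL6 CA and 15950 ± 3135 in PYR1 CA (SD, n = 3 each). It was also read in aba2-1 50 nM ABA, at 59.76 ± 70.87 (SD, n = 3), and in aba2-1 10 nM ABA, at 1.975 ± 3.421 (SD, n = 3), where 1 library held all of it. In Col-0 all libraries were at 0. The inhibitors KRP1, KRP2, KRP4, SIM and SMR1 were highest in aba2-1 50 nM ABA replicate 2, which held 34.05 of this row, whereas replicate 1 held 139.9 and replicate 3 held 5.323. Whether these reads came from the seedlings of the aba2-1 libraries or from other libraries was not tested, nor was their part in the inhibitor values.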

How the results depend on the processing

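No called member reversed its direction under any alternative run, and no named uncalled member was called in the opposite direction. In aba2-1 50 nM ABA against aba2-1 mock, where 8 members were called, edgeR called 10, losing CYCD3;3 and adding CYCD1;1, CYCD2;1 and CYCB2;4, and DESeq2 called 12, the 8 with these 3 and CYCB2;3. No filter called 7, without CYCD3;3, and a pseudocount of 5 called 8, while fitting only these groups called 0, weights by group 2, and the fit without the 3 libraries set aside 4. Leaving out 1 library gave 1 to 17, the lowest without aba2-1 50 nM ABA replicate 2 and the highest without its replicate 3. In aba2-1 50 nM against 10 nM ABA, with 2 called, DESeq2 called 7, edgeR 5, only these groups 0, weights by group 0 and the fit without the 3 libraries 1, and leaving out 1 library gave 0 to 15. In PYR1 CA against Col-0 mock, with 1 called, DESeq2 called 2, weights by group 8, the fit without the 3 libraries 2, and leaving out 1 library gave 0 to 1. Where no member was called, weights by group called 1 in aba2-1 mock against Col-0 mock, 1 in Col-0 10 nM ABA against mock, 1 in PYL4 CA and 1 in PYR1 CA against aba2-1 mock, 2 in PYL6 CA against Col-0 mock and 3 in the F test. DESeq2 called 1 in the difference of 50 nM ABA effects and 1 in PYL5 CA against Col-0 mock, the fit without the 3 libraries called 1 in PYR1 CA against aba2-1 mock, and leaving out 1 library gave 0 to 7 in the difference of 50 nM ABA effects. The share of all loci called also changed between such runs, where it is given above, and it is not given beside these counts. They therefore do not describe the members alone. The cause of the changes was not tested. Over 202 named uncalled results and 2828 alternative values, 2769 kept their side of the threshold and 59 passed it, 0 of them in the opposite direction. Changes of sign without a call were not counted.

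The replicate numbers did not pair the samples: over 36 pairs of same-numbered samples the correlation of deviations ran from -0.225 to 0.14, with 3 over 0.1. With the replicate block, 7 members were called in aba2-1 50 nM ABA against mock and 1 against 10 nM ABA. Groups of 2 or 3 libraries limit every interval. Leaving out a library of Col-0 mock or Col-0 10 nM ABA leaves an arm of 1, which is then assumed to vary like the other groups.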
